A study of Homo sapiens with 12 samples.

Results

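The transcripts of 9 homologous recombination genes (BRCA1, BARD1, EXO1, BLM, BRCA2, RAD51AP1, XRCC2, RAD54L and RAD54B) were followed in HCT116 cells, a human colorectal carcinoma line, before and after the degradation of SDS22. They were taken by gene symbol from a table of 58233 genes. Each symbol matched 1 entry, and all 9 were among the 16657 genes with enough counts to be tested. All cells carried OsTIR1, the auxin receptor subunit of rice, at the AAVS1 locus under a doxycycline-inducible promoter (HCT116 Tet-OsTIR1). Parental cells had no tagged gene. In SDS22-degron cells, labelled HCT116 Tet-OsTIR1 SDS22 WT (SDS22), both alleles of PPP1R7 encode SDS22 fused to mAID-mClover, and the line was isolated from individual colonies. Cells of either line received no treatment, or doxycycline (Dox, 2 µg/ml) together with the auxin IAA (500 µM) during 48 h (Dox/IAA), which marks the tagged SDS22 protein for degradation. There were 3 libraries of poly-A selected RNA per condition, labelled as biological replicates, and the question was how the loss of SDS22, a regulator of protein phosphatase PP1, alters gene expression.

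Homologous recombination repairs broken or stalled chromosomes by copying the intact sister, and it operates mainly in S and G2 phase. Nucleases and helicases first resect the broken end to a 3′ single strand, on which BRCA1-BARD1 and BRCA2 act. The resected strand then invades the sister DNA with the help of accessory factors and motor proteins, and helicases and nucleases finally resolve the joined molecules. Transcripts of many of these factors are known to oscillate with the cell cycle through E2F and CCAAT-box promoters. In RNA from a whole culture, fewer cells in a cycle phase and less transcript per cell cannot be told apart.

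The promoters of these genes are described first, and whether they bear on the changes reported below was not tested. Windows of 300 bases, from 250 before to 50 after each annotated start, were available in RefSeq (GRCh38.p14) for 8 of the 9 genes, with RAD54B not analysed here. These 8 genes had 11 windows, so that a gene could match in more than 1 window. BLM, RAD54L and RAD51AP1 hold both the E2F-type motif TTCCCGCC and a CCAAT box on either strand. This pair was in 4 of the 11 windows, against 1.07% of 35116 promoter windows. Both windows of RAD54L (chr1:46247438-46247737 and chr1:46247513-46247812) overlap and hold the same TTCCCGCC and CCAAT sites, which are thus counted in each. The following stretches are given 5′ to 3′ along the gene, with these motifs in capitals (on the other strand they read GGCGGGAA and ATTGG). They lie on the + strand at chr15:90717196-90717324 (BLM), chr1:46247598-46247685 (RAD54L) and chr12:4538860-4538889 (RAD51AP1, whose CCAAT box lies further upstream and is not shown).
BLM: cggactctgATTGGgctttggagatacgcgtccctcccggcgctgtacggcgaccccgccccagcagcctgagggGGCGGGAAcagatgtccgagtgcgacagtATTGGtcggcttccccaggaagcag
RAD54L: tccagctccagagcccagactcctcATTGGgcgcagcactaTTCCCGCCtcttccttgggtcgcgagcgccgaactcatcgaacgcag
RAD51AP1: tggttttgGGCGGGAAttgaaaccgccgct

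TTCCCGCC lies 75 bases upstream of the annotated start of BLM, with another copy 3 bases downstream. It lies 49 bases upstream of 1 start of RAD54L, 124 bases upstream of the other, and 22 bases upstream in RAD51AP1. It was also found in XRCC2, 21 bases downstream of the start. It was thus present in 4 of the 8 genes, in 5 of their 11 windows, against 3.16% of all windows. The longer E2F forms (TTTCCCGC, TTTCGCGC, TTTGCCGC and TTTGGCGC) were found in EXO1 and XRCC2, that is in 2 of 8 genes. These were 2 of the 11 windows, against 3.31% of all windows, and the match in XRCC2 overlaps its TTCCCGCC. A CCAAT box was present in 4 genes (BLM, BRCA1, RAD51AP1 and RAD54L), in 5 of the 11 windows, against 34.6% of all windows. The GC box GGGCGG was in 7 genes, in 8 of the 11 windows, against 45% of all windows. The CHR element of G2/M promoters, searched as TTTGAA and TTCGAA, was in 0 of the 8 genes and in 16.4% of windows. XRCC2 alone of the 8 held the NRF1 motif GCATGCGC, which is in 3.05% of windows. BRCA2 held none of the motifs searched and BARD1 held only GC boxes, so that no motif was in all 8 genes. Motifs were chosen with the expression results known, and a match of letters is not evidence of binding.

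The libraries held 12133915 to 14657508 counted reads. Levels are counts relative to the size of the library (CPM) after TMM normalization, and a difference was called at an adjusted p under 0.05 over all 16657 tested genes (edgeR quasi-likelihood test, Benjamini-Hochberg adjustment). The transcript of SDS22 itself (PPP1R7) was at 44.0 ± 2.95 CPM (SD, n = 3) in untreated and 47.9 ± 3.39 CPM in treated SDS22-degron cells and was called in none of the comparisons, with adjusted p between 0.265 and 0.945. Because the degron acts on the protein, this transcript does not check the depletion. Of 8 colon epithelium markers, 6 were above 1 CPM in every library, whereas CDH17 was at 0 and LGALS4 had at most 1 count. Markers of leukocytes summed to at most 0.835 CPM and those of endothelium to at most 1.81 CPM, with CD3E and CDH5 at 0. Fibroblast markers summed to 9.96 to 13.9 CPM in untreated parental and 17.3 to 22.9 CPM in treated parental libraries, against 13.8 to 15.8 CPM in untreated and 21.3 to 31.7 CPM in treated SDS22-degron libraries. This sum was almost entirely COL1A1, while COL1A2, DCN and LUM were at 0. Replicate 2 of untreated and of treated parental cells had the highest sum of the 9 genes in its group, at 378.9 and 348.2 CPM, against 303.7 to 328.5 and 272.2 to 289.0 CPM in the other libraries.

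After Dox/IAA, all 9 transcripts were lower in SDS22-degron cells than in untreated cells of the same line. The median log2 fold change was -1.30, against 0.00 over all tested genes. All 9 were called lower, where 25.5% of all tested genes were, and for all 9 the libraries of treated and untreated cells did not overlap, as for 59.9% of tested genes. With the additional requirement of an absolute log2 fold change above 1 (p under 0.05), 7 of 9 genes were lower, against 4.02% of tested genes, the exceptions being BARD1 and RAD54B. In parental cells the same treatment gave a median of -0.14. XRCC2 was the only one of the 9 called, as lower, where 15.7% of tested genes were called lower and 15.9% higher. Summed over the 9 genes, the level was 337.0 ± 38.3 CPM (SD, n = 3) without and 303.1 ± 39.9 CPM with treatment in parental cells. It was 321.0 ± 8.09 CPM in untreated and 135.9 ± 15 CPM in treated SDS22-degron cells, where the latter is 40.3% of the untreated parental mean.

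**Figure D1:**
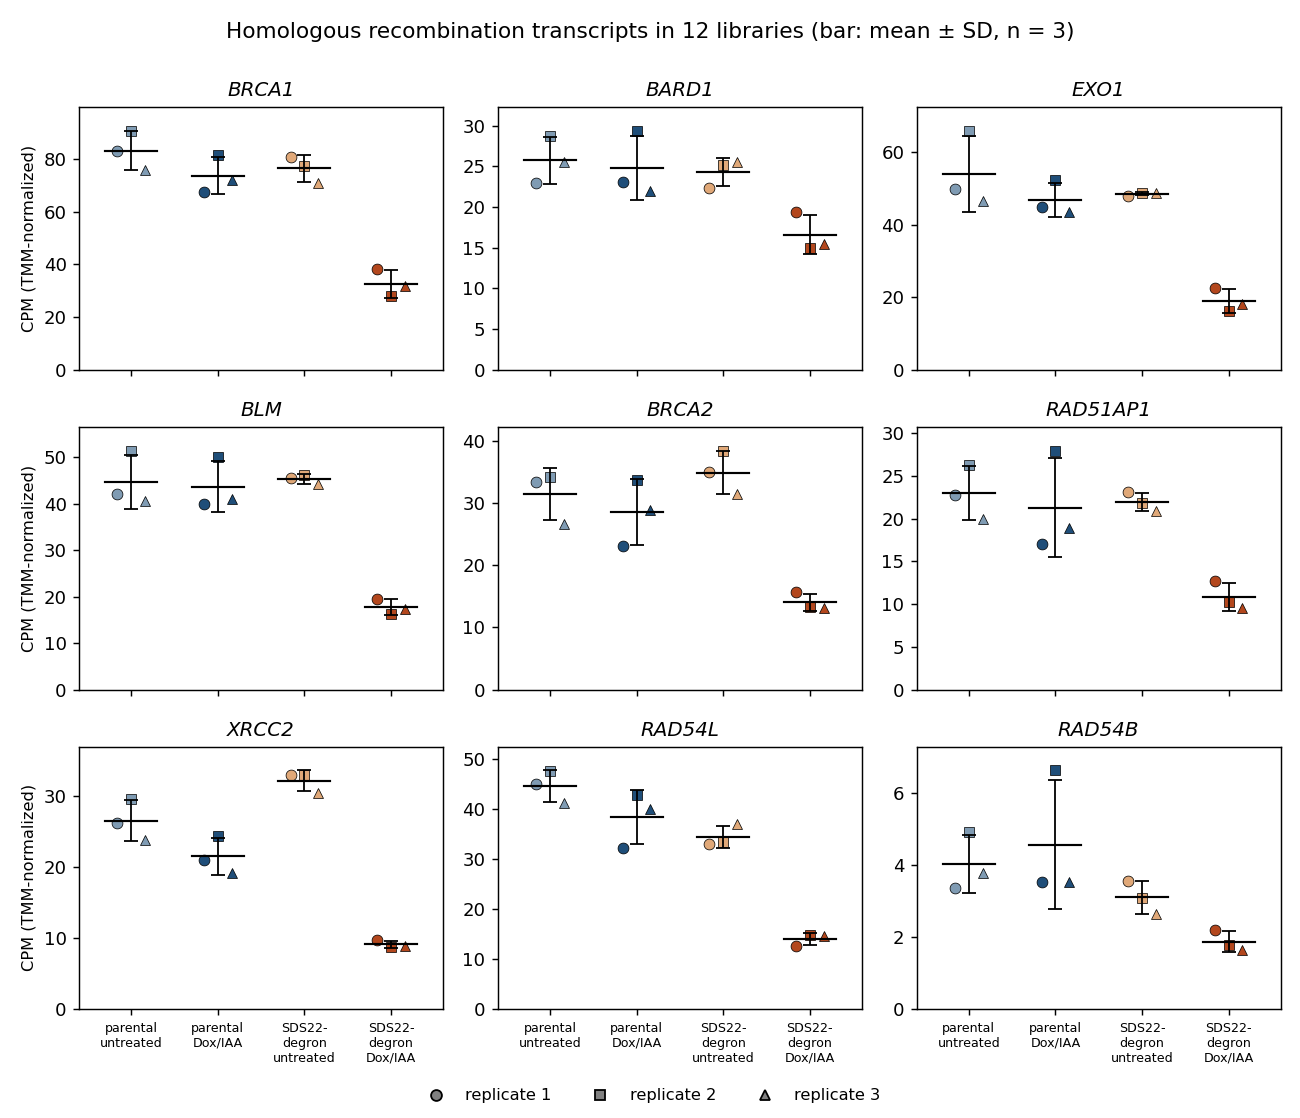
Level of each gene in TMM-normalized CPM (vertical axes from 0) in the 12 libraries, by condition; symbols mark replicates 1 to 3 and bars the mean ± SD (n = 3). The 3 treated SDS22-degron libraries lie below all other libraries for each of the 9 genes, by little for RAD54B (2.21 CPM at most, against 2.66 CPM in the lowest other library).

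BRCA1 and BARD1 form the ubiquitin ligase that acts at several steps, from end resection to strand invasion. BRCA1 (ENSG00000012048, 28 exons, minus strand, chr17:43044295-43170245) was at 83.0, 90.5 and 75.6 CPM in untreated parental cells and at 67.4, 81.4 and 72.1 CPM in treated parental cells. In SDS22-degron cells it was at 80.8, 77.3 and 70.9 CPM without treatment and at 38.4, 28.0 and 31.6 CPM after Dox/IAA. The treated SDS22-degron libraries were therefore set apart from the other 9, which overlapped each other. Within SDS22-degron cells, BRCA1 fell by 1.22 on the log2 scale (standard error, SE, 0.105, adjusted p = 3.24e-08) to 42.8% of the untreated level, with a 95% confidence interval of 36.8% to 49.8%.

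BARD1 (ENSG00000138376, 13 exons, minus strand, chr2:214725646-214809711), the partner of BRCA1, had the smallest change of the 9 within SDS22-degron cells. It was at 22.96, 28.7 and 25.5 CPM in untreated and 23.1, 29.3 and 21.9 CPM in treated parental cells. In SDS22-degron cells it was at 22.4, 25.2 and 25.5 CPM without treatment and at 19.4, 15.02 and 15.4 CPM with Dox/IAA. All 3 treated SDS22-degron libraries were below the others, although replicate 1 came close to the lowest of them. This corresponds to -0.55 on the log2 scale (SE 0.126, adjusted p = 0.00133), or 68.3% of the untreated level, with a confidence interval of 56.9% to 82.1% that does not reach the interval of BRCA1.

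The ratio of BRCA1 to BARD1 was accordingly compared within libraries, per kilobase of the deposited gene length. It was 1.33 ± 0.0658 (SD, n = 3) after treatment and 2.14 ± 0.286 without treatment in SDS22-degron cells. In parental cells it was 2.04 ± 0.178 with and 2.20 ± 0.228 without treatment. The treated SDS22-degron libraries did not overlap with either neighbouring group, but an exact permutation test of 3 against 3 libraries cannot give a p below 0.1, which was the value in both comparisons. Over all 28 comparisons of ratios made in this way, the smallest adjusted p was 0.187.

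EXO1 and BLM act in long-range resection, EXO1 as a 5′ to 3′ exonuclease and BLM as a RecQ helicase that also dissolves Holliday junctions together with TOP3A, RMI1 and RMI2. EXO1 (ENSG00000174371, 19 exons, plus strand, chr1:241847967-241895148) was at 49.6, 65.7 and 46.4 CPM in untreated and 44.8, 52.1 and 43.5 CPM in treated parental cells. It was at 48.0, 48.6 and 48.7 CPM in untreated and 22.7, 16.2 and 18.2 CPM in treated SDS22-degron cells. The untreated SDS22-degron libraries were nearly equal, and all 3 treated ones were far below them. This is a log2 fold change of -1.35 (SE 0.129, adjusted p = 1.19e-07).

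BLM (ENSG00000197299, 24 exons, plus strand, chr15:90717327-90816165) showed almost the same pattern. Its level was 42.1, 51.4 and 40.6 CPM in untreated and 40.04, 50.01 and 40.99 CPM in treated parental cells, with replicate 2 highest in both. In SDS22-degron cells it was 45.6, 46.2 and 44.2 CPM without and 19.6, 16.3 and 17.5 CPM with treatment. The groups of parental cells overlapped fully, whereas the treated SDS22-degron libraries reached 39.2% of the untreated level (confidence interval 33.5% to 46.0%). The log2 fold change was -1.35 as well (SE 0.109, adjusted p = 1.74e-08).

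BRCA2, which acts on resected DNA to prepare it for strand invasion, was close to BRCA1 and BLM in its change. BRCA2 (ENSG00000139618, 29 exons, plus strand, chr13:32315474-32400266) was at 33.5, 34.3 and 26.7 CPM in untreated and 23.1, 33.7 and 28.9 CPM in treated parental cells. It was at 35.0, 38.4 and 31.4 CPM in untreated and 15.6, 13.3 and 13.2 CPM in treated SDS22-degron cells. The 3 treated SDS22-degron libraries were tightly grouped and well below the rest, and the log2 fold change was -1.31 (SE 0.135, adjusted p = 2.63e-07).

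RAD51AP1, a stimulator of strand invasion, was the most variable of the better expressed genes in treated parental cells. RAD51AP1 (ENSG00000111247, 12 exons, plus strand, chr12:4538798-4560048) was at 22.8, 26.3 and 20.02 CPM in untreated and 17.02, 27.97 and 18.96 CPM in treated parental cells. It was at 23.1, 21.8 and 20.95 CPM in untreated and 12.7, 10.3 and 9.55 CPM in treated SDS22-degron cells. The latter libraries were again below all others, with a log2 fold change of -1.02 within the line (SE 0.161, adjusted p = 3.94e-05).

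XRCC2, which works in a complex with RAD51B, RAD51C and RAD51D, showed the largest fall of the 9. XRCC2 (ENSG00000196584, 4 exons, minus strand, chr7:152644779-152676165) was at 26.2, 29.6 and 23.7 CPM in untreated and 20.99, 24.3 and 19.1 CPM in treated parental cells. In SDS22-degron cells it was at 32.9, 32.9 and 30.4 CPM without and 9.69, 8.67 and 8.89 CPM with Dox/IAA. XRCC2 was thus highest in untreated and lowest in treated SDS22-degron cells, and neither group overlapped with any other. It reached 28.4% of the untreated level (confidence interval 24.1% to 33.4%), a log2 fold change of -1.82 (SE 0.112, adjusted p = 1.26e-09).

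RAD54L and RAD54B are related DNA translocases that move along double-stranded DNA and help in the search for homology. RAD54L (ENSG00000085999, 18 exons, plus strand, chr1:46247688-46278473) was at 44.99, 47.5 and 41.3 CPM in untreated and 32.3, 42.7 and 40.04 CPM in treated parental cells. It was at 33.0, 33.4 and 37.0 CPM in untreated and 12.6, 14.8 and 14.7 CPM in treated SDS22-degron cells. Both SDS22-degron groups were below untreated parental cells, and the treated libraries were the lowest. The log2 fold change within SDS22-degron cells was -1.30 (SE 0.111, adjusted p = 3.15e-08).

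RAD54B (ENSG00000197275, 18 exons, minus strand, chr8:94371960-94475109) was measured with few reads, 20 to 84 per library. It was at 3.38, 4.93 and 3.79 CPM in untreated and 3.52, 6.64 and 3.54 CPM in treated parental cells, and at 3.57, 3.09 and 2.66 CPM in untreated and 2.21, 1.78 and 1.65 CPM in treated SDS22-degron cells. The log2 fold change of RAD54B with Dox/IAA in SDS22-degron cells was -0.72 (SE 0.280, adjusted p = 0.0386), to 60.7% of the untreated level with a wide confidence interval of 40.4% to 91.2%. This call was lost without untreated SDS22-degron replicate 1 (adjusted p = 0.121) or 2 (0.0703), without treated SDS22-degron replicate 2 (0.0943) or 3 (0.108), and with scaling by library size only (0.0549). The ratio of RAD54L to RAD54B per kilobase was 12.6 ± 2.82 (SD, n = 3) in treated and 18.7 ± 3.98 in untreated SDS22-degron cells, with an exact permutation p of 0.1, the smallest that 3 against 3 libraries allow.

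Between the treated lines, the comparison of Dox/IAA-treated SDS22-degron with Dox/IAA-treated parental cells, all 9 genes were called lower, against 23.1% of tested genes, and 0 were called higher, against 21.8%. The treated SDS22-degron libraries enter both this comparison and the one within the line. RAD54L was the lowest, with a log2 fold change of -1.45 (SE 0.110, adjusted p = 1.46e-08), followed by EXO1 and BLM (both -1.30), RAD54B (-1.27), XRCC2 (-1.24), BRCA1 (-1.17), BRCA2 (-1.02), RAD51AP1 (-0.97) and BARD1 (-0.57). With the requirement of an absolute log2 fold change above 1, 7 were lower against 3.38% of tested genes, the exceptions being BARD1 and RAD51AP1. For all 9 the libraries of the 2 lines did not overlap, as for 52.9% of tested genes. All 9 calls held under each of the 23 alternatives that test single genes, with adjusted p of at most 0.00865.

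**Figure D2:**
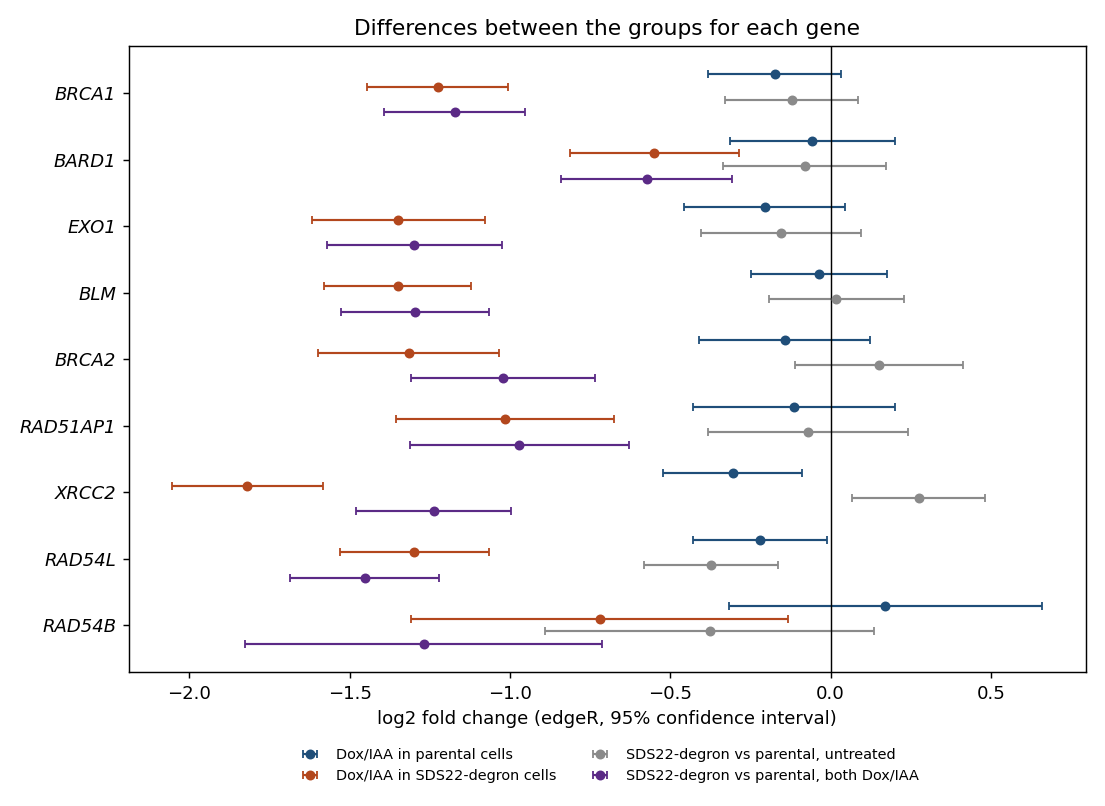
Log2 fold change of each gene (horizontal axis) with its 95% confidence interval from edgeR, for Dox/IAA within each line and for SDS22-degron against parental cells without or with treatment. The intervals within treated SDS22-degron cells lie below 0 for all 9 genes, from -0.55 for BARD1 to -1.82 for XRCC2, while those within parental cells cross 0 except for XRCC2 and RAD54L.

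Without Dox/IAA, 2 of the 9 genes differed between the lines. RAD54L was lower in SDS22-degron cells (log2 fold change -0.37, SE 0.0998, adjusted p = 0.00875), where 15% of tested genes were called lower. XRCC2 was higher (0.28, SE 0.0991, adjusted p = 0.0453), where 13.2% were called higher. Their libraries did not overlap between the lines, which was the case for 2 of the 9 genes and for 43.5% of tested genes. The median of the 9 was -0.08, and that of all tested genes on chromosome 1, which carries RAD54L, was -0.13, against 0.04 on chromosome 7, which carries XRCC2. SDS22-degron cells come from an isolated colony, so that an effect of the tag and a difference between clones cannot be told apart.

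Neither call was stable. For RAD54L the adjusted p was 0.0527 without untreated parental replicate 2, 0.0568 without untreated SDS22-degron replicate 1 and 0.0560 without replicate 2 of that group. For XRCC2 it was 0.0944 without untreated parental replicate 1 and 0.156 without replicate 3, 0.0518 without treated parental replicate 1, and 0.105 and 0.111 without untreated SDS22-degron replicate 1 and 2, respectively. It was also above 0.05 with DESeq2 (0.0571) and without a filter on low counts (0.0674). Without untreated parental replicate 2, the log2 fold changes of BARD1, RAD51AP1 and EXO1 between the untreated lines went from -0.08, -0.07 and -0.16 to 0.02, 0.06 and 0.03.

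In parental cells, Dox/IAA induces OsTIR1 without a tagged target. XRCC2 was the only gene called, with a log2 fold change of -0.30 (SE 0.103, adjusted p = 0.0303), against 15.7% of tested genes called lower. Its treated and untreated libraries overlapped, and 0 of the 9 genes had groups that did not overlap, against 41.3% of tested genes. The adjusted p of XRCC2 was 0.155 without untreated parental replicate 2, and 0.0828 and 0.149 without treated parental replicate 1 and 3. RAD54L had an unadjusted p of 0.0413 and an adjusted p of 0.104 (-0.22). Without treated parental replicate 2, RAD51AP1 (-0.36, adjusted p = 0.0383) and RAD54L (-0.30, adjusted p = 0.0329) joined XRCC2, so that 3 genes were called. The confidence intervals of the 7 genes other than XRCC2 and RAD54L spanned 0, for example from -0.38 to 0.03 for BRCA1 and from -0.25 to 0.18 for BLM.

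The effect of Dox/IAA was larger in SDS22-degron than in parental cells for 7 of the 9 genes, as tested by the interaction of line and treatment, against 8.35% of tested genes called lower in it. The median was -1.08. XRCC2 had the largest difference in response (-1.51, SE 0.152, adjusted p = 1.46e-05), followed by BLM (-1.31, adjusted p = 3.20e-05), BRCA2 (-1.17), EXO1 (-1.14), RAD54L (-1.08) and BRCA1 (-1.05). With the requirement of an absolute log2 fold change above 1, these 6 were lower, against 2.46% of tested genes, and RAD51AP1 was called with -0.90 (adjusted p = 0.0100). BARD1 (-0.49, adjusted p = 0.0682) and RAD54B (-0.89, adjusted p = 0.112) were not called. The standard error of RAD54B was 0.364, and its confidence interval ran from -1.66 to -0.13. RAD54B passed without a filter on low counts (adjusted p = 0.0367). BARD1 passed without this filter (adjusted p = 0.0191), with the likelihood ratio test (0.0464), when replicate numbers were blocked (0.0460), and without untreated parental replicate 2 (0.0284), treated parental replicate 3 (0.0446) or treated SDS22-degron replicate 1 (0.0260).

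Per kilobase of gene length, RAD54L (13.9 CPM per kb) and EXO1 (13.02) were the highest of the 9 in untreated parental cells. BRCA1 (9.31), RAD51AP1 (9.002) and BLM (6.83) followed, then XRCC2 (5.46), BARD1 (4.24), BRCA2 (2.57) and RAD54B (0.759). RAD54L and EXO1, BRCA1 and RAD51AP1, and RAD51AP1 and BLM overlapped between libraries, whereas the other neighbours did not. In treated parental cells, each neighbouring pair among RAD54L (11.9), EXO1 (11.3), RAD51AP1 (8.33) and BRCA1 (8.25) overlapped. The same held in treated SDS22-degron cells for EXO1 (4.59), RAD54L (4.36), RAD51AP1 (4.24) and BRCA1 (3.66). In these treated SDS22-degron cells the order further down also differed. BARD1 (2.74) moved up beside BLM (2.71), and XRCC2 (1.87), BRCA2 (1.14) and RAD54B (0.354) were each apart from their neighbours.

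The remaining homologous recombination genes were examined as a list of 44, of which 43 were tested. In SDS22-degron cells, 26 fell with Dox/IAA, 0 rose and 17 were not called. The median on the log2 scale was -0.39. The share that fell was 60.5%, against 25.5% of all tested genes, while 26.0% of all tested genes rose. Between the treated lines 25 were lower (58.1%, against 23.1% of tested genes) and 1 was higher (against 21.8%), with a median of -0.37. In parental cells 7 were lower, a share of 16.3% that was close to the 15.7% of all tested genes, and 1 was higher, against 15.9% of tested genes. When replicate numbers were blocked, 12 were lower and 1 higher there, against 17.9% of tested genes called lower in the same fit. In the interaction 16 were lower (37.2%, against 8.35% of tested genes) and 0 higher (against 6.03%). Summed over the list, treated SDS22-degron cells were at 68.9% of the untreated parental level, compared with 40.3% for the 9 genes.

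Of the 7 further resection genes, 4 fell within SDS22-degron cells, against 25.5% of all tested genes. DNA2, the nuclease that works with BLM, fell by 1.104 on the log2 scale (adjusted p = 7.21e-07), and BRIP1, a helicase bound to BRCA1, fell by 0.93. The components of the MRE11-RAD50-NBN complex, which starts resection, had log2 fold changes of -0.26, -0.35 and -0.10, of which that of RAD50 was called (adjusted p = 0.0360). Of the partners of BLM in junction dissolution, RMI1 fell by 1.21, TOP3A by 0.54 and RMI2 by 0.36. The latter was already lower between the untreated lines (-0.77).

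The mediators of strand exchange related to XRCC2, named after their values were seen, were uneven within SDS22-degron cells. XRCC3 fell by 1.35 (adjusted p = 1.17e-08), RAD51C by 0.60 and RAD51D by 0.47, whereas RAD51B had a log2 fold change of -0.29 (adjusted p = 0.203). SFR1, an accessory factor of strand exchange, fell by 1.24, and its partner SWI5 had a log2 fold change of 0.13. PALB2, which links BRCA1 to BRCA2, fell by 0.34 and was already lower between the untreated lines (-0.73).

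The counts of the following groups stand beside the 25.5% of all tested genes that fell in treated SDS22-degron cells. Of the 9 genes for repair synthesis and its regulation, 4 fell, among them MCM8 (-1.04) and its loader HROB (-1.01), while MCM9, which forms a helicase with MCM8, was at 0.10. Of 7 tested junction processing genes 6 fell, including EME1 (-1.28), GEN1 (-1.06) and SLX4 (-0.45), while MUS81, the partner of EME1, was at 0.11. SLX4 was among the lowest of the list between the treated lines (-1.19), but it was already lower between the untreated lines (-0.42, adjusted p = 0.00552). Its mean in parental cells was 20.2 CPM without and 25.2 CPM with Dox/IAA. The 3 subunits of the single-strand binding protein RPA all fell, RPA3 by 0.98, RPA2 by 0.42 and RPA1 by 0.41. Of the 5 genes of the BRCA1-A complex, which restrains resection, 2 fell, UIMC1 by 0.35 and BABAM2 by 0.32, with a median of -0.18. ABRAXAS1 was higher between the treated lines (0.35, adjusted p = 0.0173) but did not rise within SDS22-degron cells (-0.17, adjusted p = 0.202). Between the untreated lines it was at 0.22 (adjusted p = 0.156). Its mean in parental cells was 18.9 CPM without and 15.3 CPM with Dox/IAA.

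**Figure D3:**
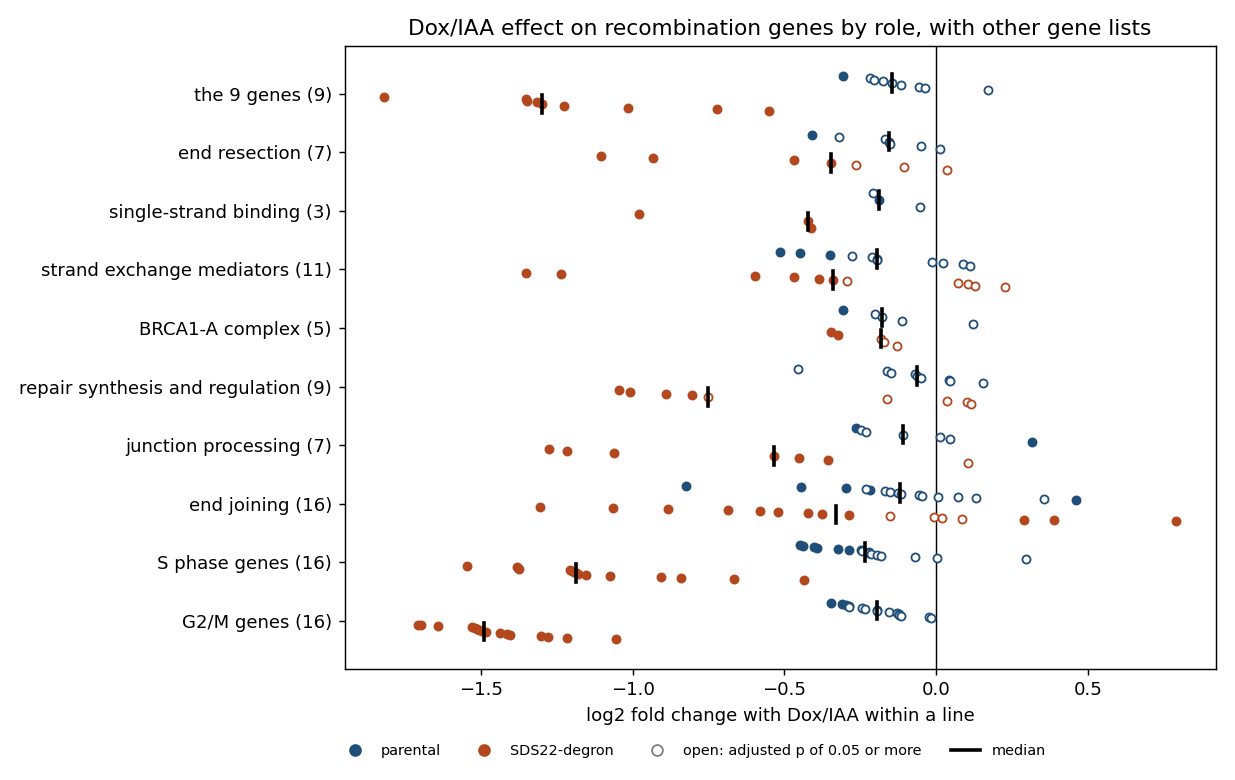
Log2 fold change with Dox/IAA (horizontal axis) of the genes shown, within parental and within SDS22-degron cells, by list, with the number of genes shown in parentheses; open circles have an adjusted p of 0.05 or more and vertical bars are medians. Within SDS22-degron cells the median of the 9 genes is -1.30, near those of the S phase (-1.19) and G2/M (-1.49) genes and below those of the other recombination lists.

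End joining, the other main route of double-strand break repair, does not copy the sister DNA. Of 16 tested end joining genes, 9 fell in treated SDS22-degron cells, 3 rose (SHLD1, LIG4 and TP53BP1) and 4 were not called, with a median of -0.33. The share that fell was 56.3%, above the 25.5% of all tested genes, and the share that rose was 18.8%, below the 26.0% of all tested genes. The interaction called 4 as lower, against 8.35% of tested genes, among them POLQ, the polymerase of theta-mediated end joining (-1.07, adjusted p = 0.00290), and PRKDC, the kinase DNA-PK (-0.44, adjusted p = 0.00467). The end joining sum was mostly made of PRKDC (980 CPM), XRCC6 (728 CPM) and XRCC5 (716 CPM), out of 3045 CPM in untreated parental cells. The summed level of the 9 recombination genes relative to that of the end joining list was 0.0716 ± 0.00621 (SD, n = 3) in SDS22-degron and 0.118 ± 0.0103 in parental cells after Dox/IAA. It was 0.115 ± 0.00251 and 0.111 ± 0.00988 without treatment, so that the treated SDS22-degron libraries lay apart from the other 3 groups, with an exact permutation p of 0.1 between the treated lines, the smallest possible.

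Transcripts of cell cycle phases moved with the 9 genes. All 16 S phase genes fell in treated SDS22-degron cells, against 25.5% of tested genes, and 15 were lower in the interaction, against 8.35%, among them the helicase subunits MCM7 (-0.93) and MCM4 (-1.15). All 16 G2/M genes fell as well, and 16 were lower in the interaction, among them the kinase AURKB (-1.35) and the proliferation marker MKI67 (-1.38). In treated SDS22-degron cells, the S phase list was at 40.6% and the G2/M list at 40.0% of the untreated parental sum, and the 9 genes were at 40.3%. The ratio of the 9 genes to the S phase list was 0.0901 ± 0.00162 (SD, n = 3) in treated and 0.0949 ± 0.000993 in untreated SDS22-degron cells. Relative to the G2/M list it was 0.108 ± 0.00787 and 0.0920 ± 0.00183, so that the first ratio was lower and the second higher in all 3 treated libraries than in the untreated ones. The exact permutation p was 0.1 for each, the smallest that 3 against 3 libraries allow. The S phase ratio in parental cells was 0.0994 ± 0.00337 with and 0.0905 ± 0.00295 without treatment, without overlap. Their G2/M ratio was 0.111 ± 0.00677 with and 0.107 ± 0.00794 without treatment, with overlap. In the G2/M ratio, treated SDS22-degron libraries overlapped with treated parental ones, while untreated SDS22-degron libraries lay below untreated parental ones. In parental cells 7 S phase genes (43.8%) and 4 G2/M genes (25%) were lower with Dox/IAA, against 15.7% of tested genes. The part of cell cycle phase in the change of the 9 genes was not tested.

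**Figure D4:**
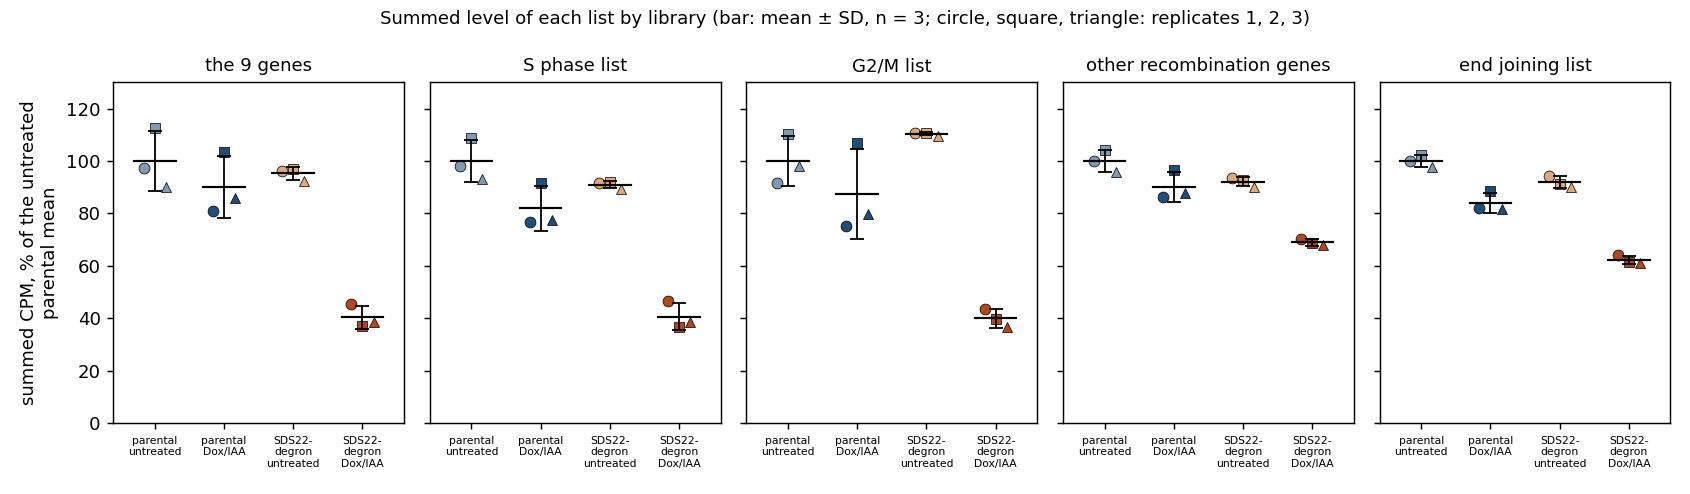
Summed CPM of each list in the 12 libraries as a percentage of the untreated parental mean (vertical axis), by condition; symbols mark replicates 1 to 3 and bars the mean ± SD (n = 3). Treated SDS22-degron cells are at 40.3% for the 9 genes, 40.6% for S phase and 40.0% for G2/M genes, but at 68.9% for the other recombination genes and 62.2% for end joining. A sum weighs abundant genes more, and that of end joining is mostly PRKDC, XRCC6 and XRCC5.

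Over the 12 libraries, the Pearson correlation of each gene's log2 CPM with the mean of the other 8 was highest for BLM (0.992) and lowest for RAD54B (0.857). Without the 3 treated SDS22-degron libraries, over the other 9, it ranged from 0.948 for RAD51AP1 to 0.405 for XRCC2. Outside all lists, the genes most like the mean of the 9 over 12 libraries were DSCC1, a clamp loader subunit for sister chromatid cohesion (0.995), the checkpoint kinase BUB1B (0.995), the cytokinesis motor KIF23 (0.995), the replication factor WDHD1 (0.994) and ECT2, a regulator of cytokinesis (0.994). Of all tested genes, 371 had a correlation above 0.95. These values share libraries and depth and are given as a description.

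**Figure D5:**
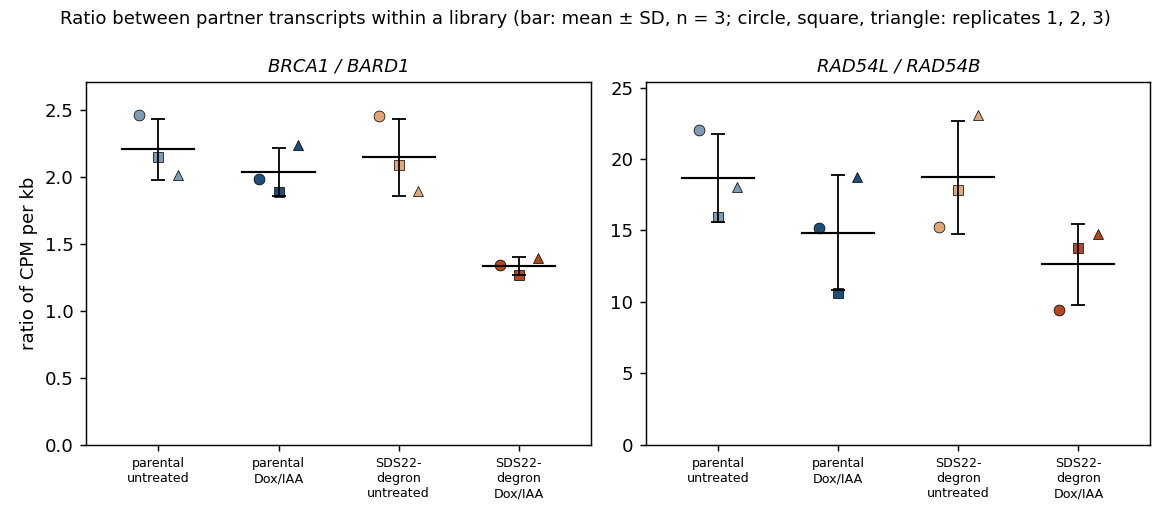
Ratio of CPM per kb between partner transcripts within each library (vertical axes from 0), by condition; symbols mark replicates 1 to 3 and bars the mean ± SD (n = 3). BRCA1:BARD1 is lowest in the 3 treated SDS22-degron libraries (1.33 ± 0.0658), whereas RAD54L:RAD54B is 12.6 ± 2.82 in these libraries and 14.8 ± 4.04 in treated parental cells, with overlapping values.

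Some reads on these genes may belong to a neighbour. BRCA1 overlaps 2 annotated genes with more than 100 counts over all libraries, the antisense NBR2 (661) and RP11-242D8.1 on its own strand (1126), against 10317 for BRCA1. RAD54L overlaps LRRC41 on the opposite strand, which had more counts (14845) than RAD54L (5082). RAD54B shares its strand with FSBP (24) and RP11-267M23.1 (179), against 526 for RAD54B. The libraries were stranded, but whether counting used the strand is not given in the sources used here. RAD51AP1 has a pseudogene, RAD51AP1P1, to which reads could be misassigned.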

How the data were processed

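For all 12 libraries the authors deposited 1 table of unnormalized read counts, with each gene's position, length and GC content in percent. No column was left unmapped. The submitters' processing notes list cutadapt 1.15, Bowtie2 2.3.3.1, STAR 2.5.2b, SAMtools 1.5, featureCounts 1.5.3 and the build GRCh38, with no role or order, and the normalization behind the study's own analysis is not given in the sources used here. How reads that match several genes were counted is not given either, which bears on genes with close copies. The sources also do not say whether the replicates came from separate thaws or passages, so that p-values measure the spread between these cultures.

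Genes with enough counts (filterByExpr, minimum count 10, by group) were normalized with TMM and fitted in edgeR 4.0.16 (R 4.3.3) with 1 mean per group over the 12 libraries. Comparisons used the quasi-likelihood F test with Benjamini-Hochberg adjustment over 16657 genes. CPM are TMM-normalized, with 2 added as prior count for correlations on the log2 scale. Errors and 95% confidence intervals were computed from fold changes and F statistics. The common coefficient of variation was 7.48%, and the median error on the log2 scale was 0.110 for 2 groups compared and 0.156 for the interaction. Differences between replicates exceeded counting noise (chi-square per degree of freedom 2.16 to 9.73). Ratios within libraries were compared with two-sided exact permutation tests of their log2 values.

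The 9 genes and all gene lists were chosen with earlier results of these data known. Of 126 listed genes, 125 were found, 7 through an older symbol. All 9 genes are described. Of the other recombination genes, those named are the 3 lowest and 3 highest called genes between the treated lines and within SDS22-degron cells, and further ones were chosen after their values were seen. A listed gene is not reported here. Of the end joining, S phase and G2/M lists, the 2 with the smallest interaction p are named.

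The labels number the replicates in each group. Deviations from the group means correlated by -0.057 to 0.246 between libraries of the same number and by -0.184 to 0.085 between different numbers. All 3 pairs were above 0.1 between the treated lines (0.101 to 0.138) and between treated and untreated parental cells (0.124 to 0.246), so that the numbers were taken to pair these libraries, but not those of the other comparisons. This choice rests on these same data and on the limit of 0.1, and the sources do not say which libraries were handled together. Between the untreated lines, libraries of the same number correlated by 0.058, 0.098 and 0.118, while all correlations between different numbers were negative. The main fit used no block, which was run as an alternative, and the permutation tests did not pair libraries. Alternatives were DESeq2 1.42.0, the likelihood ratio test, other scalings and filters, a GC correction (loess span 0.3), the replicate block, a fold change requirement and each library left out. In simulated data, changes of 0.5 and 1 on the log2 scale were planted in treated SDS22-degron libraries, in 100 genes each. Between the treated lines 73% and 72% of them were recovered, and in the interaction 25% and 54%. A gene not called in the interaction may therefore still differ.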

Additional observations from a re-analysis of the deposited data

Results flagged for a closer look

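For 7 of the 9 genes the effect of Dox/IAA differed between the lines, by the interaction of line and treatment in edgeR's quasi-likelihood test. On the log2 scale, the effect in SDS22-degron cells minus that in parental cells was -1.51 for XRCC2, -1.31 for BLM, -1.17 for BRCA2, -1.14 for EXO1, -1.08 for RAD54L, -1.05 for BRCA1 and -0.90 for RAD51AP1. Each of these 7 calls held under all 22 alternatives, with adjusted p of at most 0.0322. Groups of 3 libraries are too small to test single libraries for deviation.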

How the results depend on the processing

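The 9 genes stayed lower between the treated lines and within SDS22-degron cells under every alternative, except that the call of RAD54B within SDS22-degron cells was lost in 5 of 23. Between 8 and 9 genes were called there with a library left out. In total 978 values for single genes under an alternative kept their direction and call. Of the others, 16 turned their direction, 21 lost and 11 gained a call, and the cause was not tested.

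The comparisons with few calls moved most. Between the untreated lines, 1 of the 9 genes was called with DESeq2 and 1 without a filter, and 0 to 2 with a library left out. For the other recombination genes there, 13 were called with the GC correction and replicate block together, and 5 to 8 with a library left out. Over all tested genes, 3501 to 5058 were called there with a library left out, and at most 5531 under any alternative. In parental cells, 0 of the 9 genes were called with scaling by library size only or with only the groups compared, 2 with the GC correction and block, 0 without untreated parental replicate 2 with the block (chosen after seeing the data) and 0 to 3 with a library left out. Of the other recombination genes in parental cells, 13 were called with the replicate block, where the numbers pair the libraries, 5 with only the groups compared, 13 with the GC correction, 14 with both, and 4 to 13 with a library left out. Apart from the count of other recombination genes in parental cells and the interaction of BARD1 (adjusted p = 0.0460), the block alone changed little. It changed no other call of the 9 genes and moved no other count by over 1.5 times.

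With a fold change above 1 required in place of the adjusted p, 0 of the 9 genes and 0 of the other recombination genes were past it between the untreated lines and in parental cells, and 8, 9 and 3 of the other recombination genes between the treated lines, within SDS22-degron cells and in the interaction. Over all tested genes there were 1105 between the treated lines, 689 between the untreated lines, 1305 within SDS22-degron cells, 523 in parental cells and 600 in the interaction.

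Directions that turned were all of small differences. Between the untreated lines with a library left out, BARD1 ranged from -0.15 to 0.024, RAD51AP1 from -0.14 to 0.056, BLM from -0.031 to 0.15 (it was -0.016 without untreated parental replicate 1) and EXO1 from -0.24 to 0.032. Without untreated parental replicate 2 and with the block, EXO1 was at 0.027. In parental cells with a library left out, BARD1 ranged from -0.19 to 0.033 (0.023 without treated parental replicate 3), RAD51AP1 from -0.36 to 0.026, RAD54B from -0.20 to 0.35, and BLM from -0.14 to 0.081 (0.023 and 0.0075 without treated parental replicates 1 and 3). With library size only, BARD1 was at 0.00345 and BLM at 0.024, and BLM was at 0.049 without untreated parental replicate 2 and with the block. With 20 to 84 counts per library, RAD54B had the largest errors of the 9.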
